A study of Homo sapiens with 10 samples.

Results

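A set of 9 genes of the MHC class I pathway was followed by symbol through 10 RNA libraries of A375 cells, out of 60623 genes counted and 18450 that held enough reads to be tested. They are the heavy chain genes HLA-B, HLA-C, HLA-E and HLA-F, the light chain gene B2M, the peptide transporter genes TAP1 and TAP2, the immunoproteasome gene PSMB9 and the regulator NLRC5. The list was given by name, but it was chosen with earlier results of these data known. All 9 genes passed the filter on low counts.

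MHC class I molecules sit on the surface of nearly all nucleated cells and show T cells short peptides cut from proteins made inside the cell. The proteasome cuts the peptides, TAP1 and TAP2 form the pump that carries them into the endoplasmic reticulum, and there they are loaded onto a heavy chain paired with B2M. Interferons raise transcription of the whole set, through IRF factors and through NLRC5, which activates class I promoters, and tumour cells that lower it can escape T cells.

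A375 is a human melanoma line, and its cells were harvested 72 h after transfection. Experiment 1 held 4 libraries with siRNA to PHF10, a subunit of the PBAF chromatin remodelling complex, and 2 controls. Experiment 2 held 2 libraries labelled as knockdown of the transcription factor MYC, called MYC-labelled here, and 2 controls. The series' description gives the controls a control siRNA, while their treatment field reads no treatment, and all groups come from this one line. Nothing in the labels says that replicates were separate cultures, so every p below measures only the spread between these libraries, which may be technical.

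Libraries held 20.5 to 38.4 M reads in genes. PHF10 mRNA fell from 38.4 ± 2.43 CPM (reads of a gene per M reads in genes; SD, n = 2) to 16.2 ± 1.25 CPM (SD, n = 4), by 1.24 on the log2 scale (SE 0.10, edgeR adjusted p = 0.00105). MYC mRNA was at 16.7 and 13.3 CPM with the MYC label and at 14.9 and 26.5 CPM in those controls (adjusted p = 0.688). These values overlapped, so directions in experiment 2 rest on the labels. The melanoma and neural crest factor SOX10 stood at 528 to 948 CPM. The pigment genes MLANA and TYR were close to 0, each below 0.1 CPM in every library. Of 10 immune cell markers 8 were under 1 CPM in every library, CD2 was at 0 throughout, and PTPRC, the pan-leukocyte marker, reached at most 0.13 CPM. In bulk RNA, fewer cells of a type and less RNA per cell cannot be told apart.

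Before any comparison of groups, 3 libraries of experiment 1 stood apart. The interferon level of a library was taken as the mean log2 CPM (prior count of 2) of 43 type I interferon-stimulated genes, none of them among the 9. It was 7.86 and 7.57 in PHF10 knockdown replicates 1 and 2 and 8.20 in control replicate 1. It was 3.97 and 5.17 in PHF10 knockdown replicates 3 and 4 and 5.04 in control replicate 2, and 3.57 to 3.75 in experiment 2. The split therefore runs across knockdown and control, and the first 3 libraries are called interferon-high and the other 3 of experiment 1 interferon-low. The share of reads outside annotated genes moved with it, at 12.1% to 13.8% in the high libraries and 9.93% to 10.6% in the low ones, and its part in the values below was not tested. Since the parts were read from measured expression, values across them are given as a description with no test.

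The stretches upstream of the start sites are shown first, since several of these genes are known for interferon response elements there. RefSeq promoters (GRCh38.p14) were in the table for 7 of the 9 genes, all but HLA-E and NLRC5, and the 250 bases before each start were searched on both strands. Capitals mark a match to the longer response element form, GAAA, any 2 bases and GAAA, or to the shorter form, GAA, any 2 bases and GAAA. Matches on the other strand appear as their reverse complement.
HLA-F (chr6:29723249-29723389, plus strand): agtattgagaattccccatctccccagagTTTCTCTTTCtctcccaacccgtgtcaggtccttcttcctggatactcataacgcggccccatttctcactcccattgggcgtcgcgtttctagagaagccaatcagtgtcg
HLA-C (chr6:31272137-31272277, minus strand): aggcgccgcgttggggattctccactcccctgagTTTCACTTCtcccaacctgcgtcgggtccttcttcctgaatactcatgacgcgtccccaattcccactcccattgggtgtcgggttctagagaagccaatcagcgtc
HLA-B (chr6:31357224-31357364, minus strand): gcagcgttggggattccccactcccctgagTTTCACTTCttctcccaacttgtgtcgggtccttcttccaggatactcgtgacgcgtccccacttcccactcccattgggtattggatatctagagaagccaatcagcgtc
B2M (chr15:44711362-44711477, plus strand): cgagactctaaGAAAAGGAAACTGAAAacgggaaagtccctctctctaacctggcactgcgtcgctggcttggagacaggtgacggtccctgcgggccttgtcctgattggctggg
TAP1 (chr6:32853764-32853864, minus strand): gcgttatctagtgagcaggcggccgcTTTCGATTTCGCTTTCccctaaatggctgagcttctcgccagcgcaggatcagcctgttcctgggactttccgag
TAP2 (chr6:32838759-32838819, minus strand): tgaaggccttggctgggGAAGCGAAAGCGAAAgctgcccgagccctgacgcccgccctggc
PSMB9 (chr6:32854092-32854191, plus strand): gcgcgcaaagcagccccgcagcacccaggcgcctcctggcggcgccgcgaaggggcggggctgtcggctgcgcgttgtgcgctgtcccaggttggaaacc
HLA-F, B2M, TAP1 and TAP2 held the longer form, 4 of 7 genes, against 3.02% of 35116 promoters of the same length. HLA-B, HLA-C and TAP2 held the shorter form, against 6.56% of promoters, and in TAP2 it overlaps the longer one. The match begins 155 bases before the start in HLA-B, 151 in HLA-C and 156 in HLA-F, while in TAP2 the longer form begins 58 bases before it. B2M and TAP1 each held 2 overlapping matches to the longer form. The PSMB9 stretch has no capitals because neither form was found in its window. PSMB9 and TAP1 are transcribed away from each other from starts 488 bases apart. A TAP1 match lies between these starts, 360 bases from that of PSMB9 and so outside its 250-base search. The box CCAAT was found in 6 of the 7, against 32% of promoters. These matches describe letters in a window and say nothing of binding.

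Levels were compared between genes as CPM per kilobase of the principal transcript (the isoform that the annotation ranks first), in the controls of experiment 2. B2M led at 480.3 ± 11.2 (SD, n = 2 for each gene), followed by HLA-B at 299.9 ± 8.33 and HLA-C at 117.9 ± 5.14. HLA-E stood at 48.5 ± 0.43 and HLA-F at 7.04 ± 0.11. The neighbours PSMB9 at 21.4 ± 0.38 and TAP1 at 21.2 ± 0.66 did not differ beyond their spread by this length. TAP2 stood at 13.4 ± 0.26, and the regulator NLRC5 was lowest at 2.93 ± 0.13. Counting over all annotated exons in place of the principal transcript put HLA-B at 152.0 and B2M at 134.7, so the order of these genes depends on the length used.

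HLA-B and HLA-C present peptides to cytotoxic T cells. HLA-B (ENSG00000234745, chromosome 6 from 31269491 to 31357188, minus strand, GRCh38) stood at 2181, 922.4, 387.8 and 728.3 CPM in replicates 1 to 4 of PHF10 knockdown and 2588 and 638.5 CPM in the controls of experiment 1. In experiment 2 HLA-B stood at 616.9 and 714.9 CPM in the MYC-labelled libraries and 473.0 and 454.8 CPM in their controls. Its 3 interferon-high libraries lay above the 3 low ones, with replicate 2 of the knockdown only 1.27 times the highest low library, and knockdown and control overlapped in experiment 1. HLA-C (ENSG00000204525, chromosome 6 from 31268749 to 31272130, minus strand) measured 954.8, 682.2, 283.2 and 397.7 CPM after PHF10 knockdown and 1153 and 358.5 CPM in the controls, then 224.1 and 246.7 CPM with the MYC label and 186.7 and 175.5 CPM in those controls. The same 3 libraries were highest, by at least 1.72 times, and every value of experiment 2 lay below every value of experiment 1. The annotated exons of these neighbours share 35 bases on one strand, and class I genes resemble each other closely, so reads may be split between them.

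HLA-E and HLA-F are nonclassical: HLA-E shows leader peptides of other class I molecules to natural killer cells. HLA-E (ENSG00000204592, chromosome 6 from 30489467 to 30494205, plus strand) measured 451.5, 222.0, 133.5 and 232.1 CPM after PHF10 knockdown and 408.7 and 157.8 CPM in the controls, then 119.8 and 124.1 CPM with the MYC label and 127.0 and 125.4 CPM in their controls. It was the one gene of the 9 whose parts overlapped, since interferon-high knockdown replicate 2 lay below low replicate 4. HLA-F (ENSG00000204642, chromosome 6 from 29722775 to 29738528, plus strand) measured 110.0, 49.98, 8.042 and 17.49 CPM after PHF10 knockdown and 106.2 and 11.41 CPM in the controls, then 12.3 and 15.1 CPM with the MYC label and 11.6 and 11.4 CPM in their controls. It spanned 13.7-fold in experiment 1, the widest range of the 9, and its high libraries lay at least 2.86 times above the low ones. HLA-F shares exon sequence with the antisense gene HLA-F-AS1, and the strand opposite to the gene held at most 12.9% of the stranded reads assigned to HLA-F.

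B2M, the shared light chain of all class I molecules (ENSG00000166710, chromosome 15 from 44711487 to 44718877, plus strand), measured 2822, 1900, 732.5 and 904.6 CPM after PHF10 knockdown and 3316 and 849.2 CPM in the controls. In experiment 2 B2M stood at 846.6 and 910.2 CPM in the MYC-labelled libraries and 832.4 and 805.5 CPM in their controls. The interferon-high libraries lay at least 2.10 times above the low ones, PHF10 knockdown replicate 3 lay below every library of experiment 2, and the other low libraries of experiment 1 lay among them. B2M and NLRC5 lie outside the MHC region of chromosome 6 that holds the other 7 genes.

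TAP1 (ENSG00000168394, chromosome 6 from 32845209 to 32853978, minus strand) measured 383.0, 237.1, 79.7 and 98.7 CPM after PHF10 knockdown and 418.1 and 87.0 CPM in the controls. In experiment 2 it measured 77.1 and 85.3 CPM with the MYC label and 64.0 and 61.3 CPM in the controls. Its interferon-high libraries lay at least 2.40 times above the low ones, and both MYC-labelled libraries lay above both controls. TAP2 (ENSG00000204267, chromosome 6 from 32821833 to 32838780, minus strand), the partner chain of the pump, measured 60.8, 50.3, 33.7 and 38.5 CPM after PHF10 knockdown and 82.4 and 38.5 CPM in the controls, then 22.2 and 21.9 CPM with the MYC label and 33.9 and 33.0 CPM in their controls. It had the narrowest range of the 9 in experiment 1, 2.45-fold, and in experiment 2 it went the other way from TAP1, with both labelled libraries below both controls. Of its exon bases 32.3% also belong to AL669918.1 on the same strand, a gene with 0 reads in every library, and reads there would be counted for neither, so the TAP2 level may be understated.

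PSMB9 (ENSG00000240065, chromosome 6 from 32844136 to 32859585, plus strand) replaces the constitutive subunit PSMB6 in the immunoproteasome. It measured 47.2, 41.1, 16.3 and 13.9 CPM after PHF10 knockdown and 57.5 and 16.2 CPM in the controls of experiment 1. In experiment 2 it measured 13.8 and 17.1 CPM with the MYC label and 16.9 and 16.5 CPM in the controls. Its high libraries lay at least 2.53 times above its low ones, and in experiment 2 the groups overlapped. NLRC5 (ENSG00000140853, chromosome 16 from 56989485 to 57083531, plus strand) measured 100.1, 56.9, 17.5 and 30.1 CPM after PHF10 knockdown and 110.7 and 21.3 CPM in the controls. In experiment 2 NLRC5 measured 20.7 and 21.5 CPM with the MYC label and 20.6 and 19.4 CPM in the controls. Its parts did not overlap, and control replicate 1 held 5.20 times the level of control replicate 2.

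**Figure D1:**
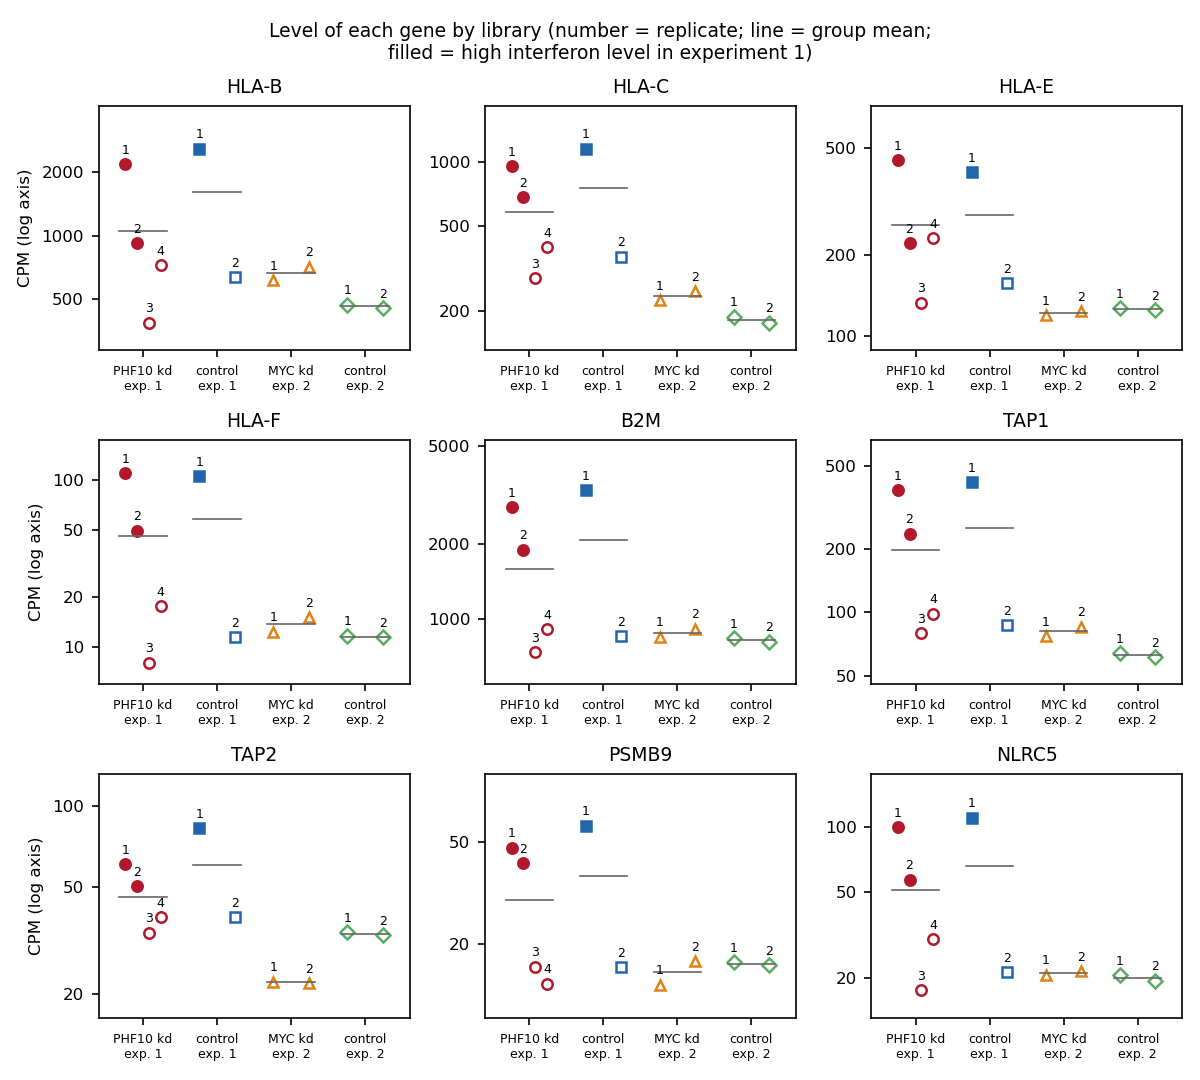
Level of each of the 9 genes in every library in CPM on a log axis, by group, with replicate numbers, group means as lines and interferon-high libraries filled. In 8 panels the 3 filled points lie above all open points of experiment 1, and in the HLA-E panel filled replicate 2 (222.0 CPM) lies below open replicate 4 (232.1 CPM).

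Across the split, 8 of 9 genes were higher in all 3 interferon-high libraries without overlap, where 9.43% of the tested genes were. None was lower without overlap, where 9.13% were. The order of libraries was nearly shared: 7 genes were highest in control replicate 1 and 2 (HLA-E and HLA-F) in PHF10 knockdown replicate 1, while 8 were lowest in knockdown replicate 3 and PSMB9 in replicate 4. The ratio between the control libraries ran from 2.14 for TAP2 to 9.31 for HLA-F. The median log2 range over experiment 1 was 2.18 for the 9 genes against 0.865 for all tested genes. In experiment 2 it was 0.402 against 0.382.

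**Figure D2:**
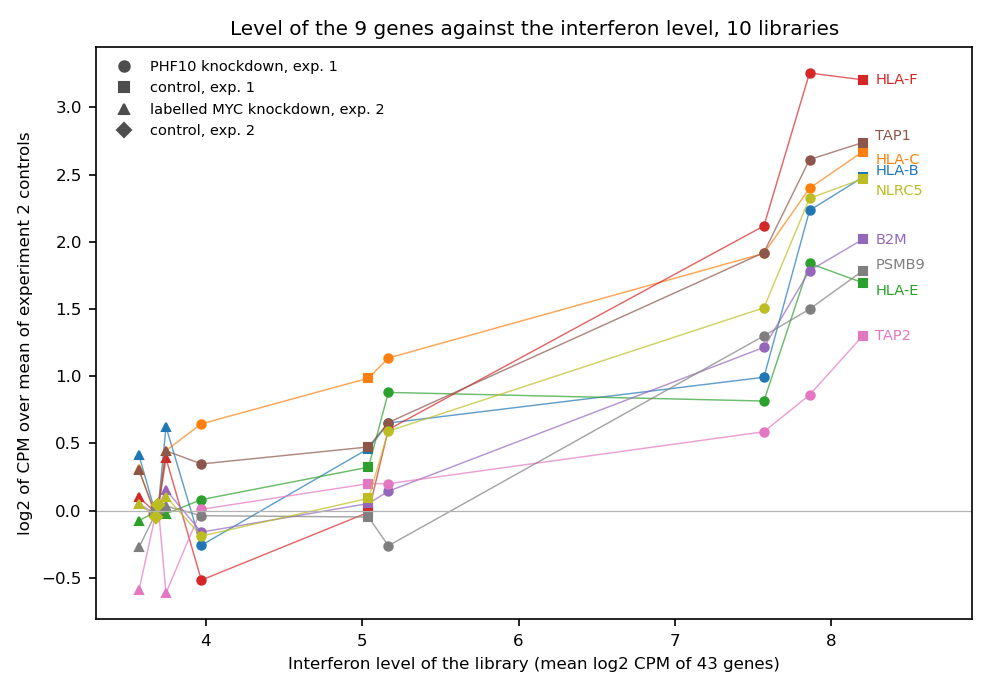
The log2 ratio of each gene's CPM to its mean in the experiment 2 controls, against the interferon level of the library, with shapes for the groups and a line per gene. The 3 libraries above an interferon level of 7.5 hold the highest values of 8 genes, HLA-F reaches the top of the plot and TAP2 the lowest end point among the genes.

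Other genes of the pathway showed the same split to different extents. Of 11 tested genes for loading, trimming and the immunoproteasome, 8 were higher in the high libraries without overlap and 0 lower. They were the loading factors TAPBP and TAPBPL, the peptide trimming enzymes ERAP1 and ERAP2, the immunoproteasome subunits PSMB8 and PSMB10, and the proteasome activator subunits PSME1 and PSME2. PSMB8, for example, measured 70.5, 56.1, 38.4 and 39.2 CPM after PHF10 knockdown and 82.4 and 41.7 CPM in the controls. The endoplasmic reticulum chaperones CALR and PDIA3 overlapped. Of the 3 constitutive catalytic subunits, which the immunoproteasome subunits replace, PSMB5 and PSMB7 were lower in the high libraries without overlap. Of 12 other class I genes, 4 were higher without overlap, among them HLA-G, MR1 and RAET1G.

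Among 17 regulators of class I transcription, 3 were higher in the high libraries without overlap, IRF1 and IRF2 among them, and SUGT1 was lower. IRF1, a transcription factor that interferon induces, measured 33.8, 27.1, 13.2 and 17.2 CPM after PHF10 knockdown and 41.0 and 12.1 CPM in the controls. It stood at 33.3 to 35.5 CPM in all 4 libraries of experiment 2, where the interferon level was low. The ligands IFNB1 and IFNL1 were detected in the 3 high libraries alone, IFNB1 at 0.22, 0.081 and 0.19 CPM and IFNL1 at 0.13, 0.24 and 0.28 CPM, while 0 reads in the other 7 libraries allow up to 0.0782 to 0.128 CPM. The limits are per M reads in genes without TMM scaling and cover counting error only. The values, given for knockdown replicates 1 and 2 and then control replicate 1, rest on a few reads.

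Class II genes, which present peptides from outside the cell to helper T cells, did not follow. Of 13 tested, CTSS, a lysosomal protease, was higher without overlap and HLA-DQB1 lower, and the other 11 overlapped. HLA-DRA measured 640.2, 724.8, 834.7 and 878.7 CPM after PHF10 knockdown and 989.3 and 1036 CPM in the controls, with control replicate 1 close to control replicate 2. The class II activator CIITA, a relative of NLRC5, stood at 182.6 to 231.5 CPM in all 6 libraries, while NLRC5 spanned 6.31-fold. Immune cell markers summed to 14.1 to 31.4 CPM in the high libraries and 12.8 to 31.8 CPM in the low ones, most of it LYZ, which overlapped between the parts.

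The genes whose profile over the 10 libraries was most like the mean of the 9 (Pearson's r of log2 CPM, among 11093 genes) were TRANK1 (r = 0.995), TMEM62 (0.992), APOL3 (0.990), PARP12 (0.989), RTP4 (0.988), PARP14 (0.986), DDX60L (0.983) and DTX3L (0.982). TRANK1 measured 261.1, 133.8, 27.8 and 45.4 CPM after PHF10 knockdown, 309.5 and 37.6 CPM in the controls, and 32.4 to 35.0 CPM in experiment 2. It was also the single closest gene to HLA-F, B2M and NLRC5. The closest to HLA-B was HLA-H (0.998), a near-identical pseudogene that may take its reads, and the closest to TAP2 was PSMB8 (0.977). DHX58 was closest to HLA-C, KIAA1755 to HLA-E, TRIM21 to TAP1 and TRIM38 to PSMB9. Among the 36 pairs of the 9 genes r ran from 0.778 to 0.994 with a median of 0.942, a likeness that rests on the spread within experiment 1. Over the 4 libraries of experiment 2, too few for a correlation to be given, 15 of the 36 pairs ran in opposite directions (r below 0), 6 of the 8 pairs with TAP2 among them. These values rest on the same 10 libraries, share the 3 high ones, and are given as a description.

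Ratios within a library do not depend on its depth. Reads per kilobase of TAP1 per those of TAP2 stood at 5.32 and 3.98 in PHF10 knockdown replicates 1 and 2 and 4.28 in control replicate 1. They stood at 2.00, 2.17 and 1.91 in the low libraries, at 2.94 and 3.29 in the MYC-labelled ones and at 1.59 and 1.57 in their controls. TAP1 and TAP2 therefore did not move in proportion, neither across the split nor in experiment 2. Reads of PSMB9 per read of PSMB6 were 0.901, 0.565 and 0.993 in the high libraries, in the order just given, and 0.175 to 0.193 in the low ones. In experiment 2 they were 0.179 to 0.223, so the immunoproteasome share of this pair was close to that of the low libraries.

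HLA-B reads per HLA-C read (per kilobase) did not follow the split, with 2.27, 1.34, 1.36 and 1.82 after PHF10 knockdown and 2.23 and 1.77 in the controls. All 4 values of experiment 2 lay above these, at 2.52 to 2.88. The sum of the 4 heavy chains per B2M was 1.37, 1.04, 1.14 and 1.56 after PHF10 knockdown and 1.36 and 1.43 in the controls, with the parts overlapping. It was 1.21 and 1.27 in the MYC-labelled libraries and 0.990 and 0.981 in their controls, without overlap.

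**Figure D3:**
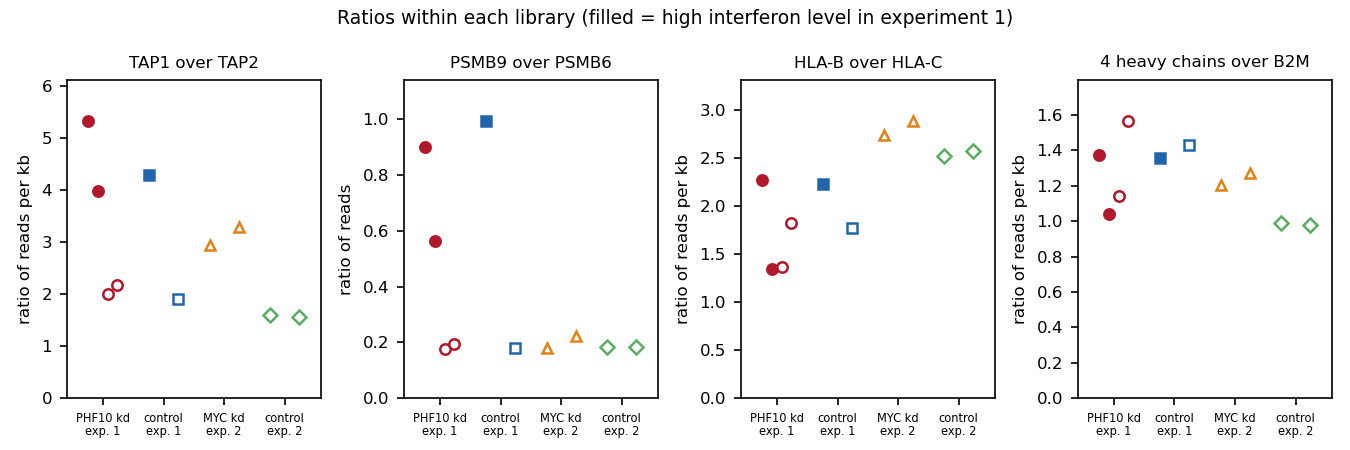
Ratios of reads within each library, on linear axes from 0, by group, with interferon-high libraries filled. TAP1 over TAP2 and PSMB9 over PSMB6 separate the filled from the open points of experiment 1 (3.98 to 5.32 against 1.91 to 2.17, and 0.565 to 0.993 against 0.175 to 0.193), while HLA-B over HLA-C and the heavy chains over B2M do not.

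The comparison of PHF10 knockdown with its own controls asks which genes depend on PHF10. None of the 9 genes passed the test, and all 9 overlapped between knockdown and control. The log2 fold changes ran from −0.61 for HLA-B (SE 0.643, edgeR adjusted p = 0.626; n = 4 and 2) to −0.13 for HLA-E (SE 0.453, adjusted p = 0.907). The count of 0 of 9 stood beside 6.34% of all tested genes, and it was also 0 at an unadjusted p under 0.05, by DESeq2 and by limma-voom. The median of the 9 was −0.37 against 0.02 for all tested genes. The intervals were wide: the 95% interval of HLA-F ran from −2.69 to 2.00 and that of B2M from −1.70 to 0.92, so even sizeable changes were not detectable here in either direction. With no filter on low counts HLA-B alone was called, at −0.62 (adjusted p = 0.00557, beside 6.01% of genes), where its SE was 0.167 against 0.643 with the filter.

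The sign depended on the libraries kept. Without control replicate 1 all 9 values were positive, from 0.24 for TAP2 to 2.01 for HLA-F, with adjusted p from 0.451 to 0.683, and without control replicate 2 they ran from −0.66 for HLA-E to −1.30 for HLA-B. HLA-E and HLA-F were positive without PHF10 knockdown replicate 3 as well. Within the 3 interferon-high libraries, a comparison of 2 knockdown libraries with 1 control, the values ran from −0.74 for HLA-B to −0.28 for HLA-E. Within the 3 low libraries the values ran from −0.20 for HLA-B to 0.21 for HLA-E. The parts were read from the expression measured in these libraries, and each holds a single control, so these values are a description with no test.

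**Figure D4:**
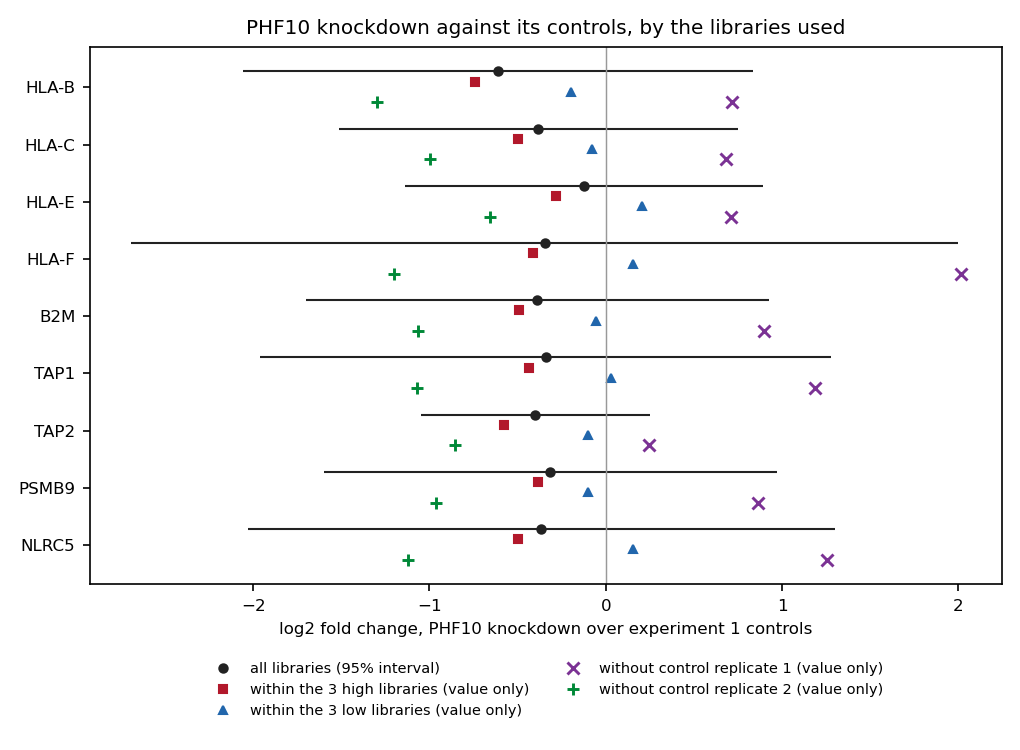
Log2 fold change of each gene after PHF10 knockdown over the controls of experiment 1, as circles with 95% intervals for all libraries, and as values alone within each part of the interferon split (squares and triangles) and with 1 control left out (crosses and plus signs). All 9 values lie above 0 without control replicate 1 and below 0 without control replicate 2, and all 9 intervals for all libraries include 0.

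The lists around the 9 genes held few calls in this comparison. Of 17 regulators EZH2, the Polycomb methyltransferase, fell by 0.71 (SE 0.117, adjusted p = 0.00998), and RFX5, a subunit of the factor that binds class I and class II promoters, fell by 0.66 (SE 0.169, adjusted p = 0.0497). The EZH2 call was lost without either control of experiment 1 (adjusted p up to 0.0813), and that of RFX5 was lost in 8 of 10 fits with 1 library left out. Of 17 interferon ligands, receptors and signalling genes IFNE, an epithelial type I interferon, rose by 1.70 (SE 0.292, adjusted p = 0.0116), and this call too was lost without either control. With experiment 1 fitted alone EZH2 (adjusted p = 0.0899), RFX5 (adjusted p = 0.184) and IFNE (adjusted p = 0.0793) were not called. Of 8 tested melanoma markers S100B fell by 1.11 (SE 0.18, edgeR adjusted p = 0.00924). This call was also lost without either control and with experiment 1 fitted alone (adjusted p = 0.0714). Of 11 loading genes, 13 class II genes and 43 type I interferon-stimulated genes, 0 were called in each list. The type I list is the one that defines the split.

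The MYC-labelled libraries were set against the experiment 2 controls, where the interferon level was even. Of the 9 genes 6, HLA-B, HLA-C, HLA-F, B2M, TAP1 and NLRC5, were above in both labelled libraries, where 33.6% of tested genes were, and HLA-E and TAP2 were below in both, where 36% were. With both experiments in the fit 0 of 9 were called, beside 0.493% of genes, and 0 at an unadjusted p under 0.05, by DESeq2 and by limma-voom. Values ran from −0.60 for TAP2 (SE 0.344, adjusted p = 0.505; n = 2 and 2) to 0.52 for HLA-B (SE 0.76).

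The calls depended on whether experiment 1 was in the fit. The common biological coefficient of variation was 21.4% with both experiments, 26.7% in experiment 1 alone and 3.39% in experiment 2 alone. Fitted alone, experiment 2 gave 5 genes higher and 1 lower, beside 21.9% of all genes higher and 22.6% lower. HLA-B rose by 0.53 (SE 0.0557, adjusted p = 8.06e-07), HLA-C by 0.39 (SE 0.0454, adjusted p = 2.04e-09) and TAP1 by 0.38 (SE 0.0517, adjusted p = 2.36e-08). HLA-F rose by 0.25 and B2M by 0.11, with adjusted p of 0.0335 and 0.0231. TAP2 fell by 0.59 (SE 0.0673, adjusted p = 1.81e-10). HLA-E (−0.04), NLRC5 (0.08) and PSMB9 (−0.11) did not pass, and their 95% intervals stayed between −0.29 and 0.24. With 44.5% of all genes called in that fit, the share of called genes among the 9 is read against a high background.

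**Figure D5:**
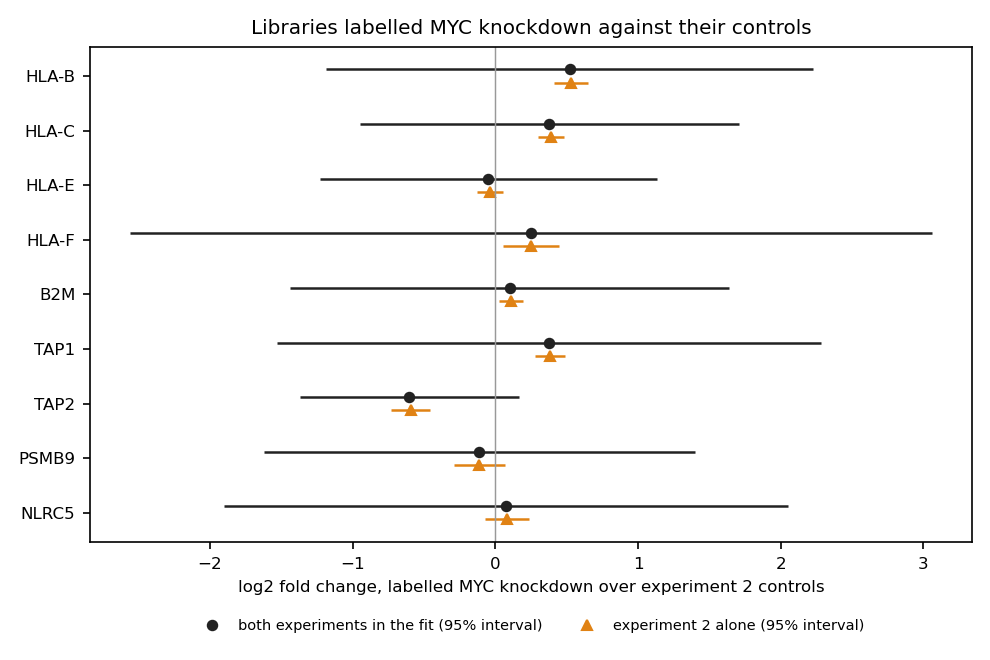
Log2 fold change of each gene in the MYC-labelled libraries over their controls, with 95% intervals, with both experiments in the fit and with experiment 2 alone. Point values nearly coincide, and the intervals for HLA-B, HLA-C, HLA-F, B2M, TAP1 and TAP2 leave out 0 only with experiment 2 alone.

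The neighbours of the 9 genes were mixed in experiment 2 alone. TAPBP rose by 0.16 (SE 0.047). PSMB8 fell by 0.27, CIITA by 0.46 and RFX5 by 0.31, and all 3 constitutive proteasome subunits fell, PSMB6 by 0.24. Of 10 targets typical of interferon gamma 8 fell and 0 rose, among them CXCL10 by 1.18 and GBP1 by 0.62. Of 43 type I interferon-stimulated genes 5 rose and 13 fell. HLA-B, HLA-C, HLA-F, B2M and TAP1 thus rose in the fit in which 8 of these 10 targets fell. None of these neighbours was called with both experiments in the fit. In that fit the melanoma marker NGFR fell by 1.99 (edgeR adjusted p = 0.0289) and the epithelial marker KRT14 by 1.77 (adjusted p = 0.0343). These calls were lost in 4 and 5 of 10 fits with 1 library left out. Traces of other cell types' markers moved with the label: summed immune markers stood at 2.78 to 3.71 CPM against 7.08 to 7.54 CPM in the controls, epithelial markers at 3.58 to 4.53 against 13.2 to 13.5 CPM and endothelial markers at 5.72 to 6.73 against 15.9 to 17.0 CPM. The defining immune markers CD2 and PTPRC were at or near 0 in all 4 libraries, and the part of these markers in the values of the 9 genes was not tested.

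The difference between the PHF10 and the labelled MYC responses was tested as an interaction. None of the 9 genes was called, beside 0.385% of genes, and the counts at an unadjusted p under 0.05, by DESeq2 and by limma-voom were 0 as well. Differences ran from −1.14 for HLA-B to 0.20 for TAP2, and without control replicate 1 of experiment 1 all 9 were positive, HLA-B at 0.20 and HLA-F at 1.77. With no filter HLA-B was called, at −1.14 (adjusted p = 0.0012), beside 2.33% of genes, where its SE was 0.26 against 0.999 with the filter.

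The controls of experiment 2 were compared with those of experiment 1, where experiment and batch cannot be told apart. PHF10 mRNA itself stood at 124.5 ± 0.48 CPM in the experiment 2 controls and 38.4 ± 2.43 CPM in the experiment 1 controls (SD, n = 2 each). It was higher in experiment 2 by 1.70 on the log2 scale (SE 0.121, edgeR adjusted p = 0.000122). All 9 values were negative, from −2.35 for HLA-F to −0.85 for TAP2, with a median of −1.72 against −0.02 for all tested genes. None was called, beside 14.6% of genes. At an unadjusted p under 0.05 there were 4 (HLA-B, HLA-C, TAP1 and TAP2), by DESeq2 1 and by limma-voom 0. HLA-C came closest at −2.06 (adjusted p = 0.0522). With no filter all 9 were called, beside 9.63% of genes. Their SEs there ran from 0.196 to 0.21, against 0.343 to 1.26 with the filter. With the replicate number as a block 4 were called, beside 7.72% of genes. That fit sets the comparison at replicate 1, where the control of experiment 1 was interferon-high, so it does not compare the group means. Without the interferon-high control 7 of the 9 values were still negative: HLA-C was at −0.98, TAP1 at −0.46, HLA-B at −0.45, HLA-E at −0.31, TAP2 at −0.19, NLRC5 at −0.08 and B2M at −0.04. HLA-F was at 0.02 and PSMB9 at 0.06.

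Class II genes passed the test between these controls, which the 9 class I genes did not. The 9 had a median log2 fold change of −1.72, against −1.27 for the 13 class II genes. The calls therefore do not mark a larger change in class II. Of 13 tested 9 fell and 0 rose, where 6.6% of all tested genes fell, HLA-DMA by 1.38 (SE 0.15, adjusted p = 0.000669) and HLA-DRA by 1.32 (SE 0.177, adjusted p = 0.00187), and both calls held with each of the 10 libraries left out. HLA-DRB1, HLA-DRB5 and HLA-DMB held in all 10 such fits too. The other 4 did not: HLA-DQB1 and HLA-DPB1 were lost without control replicate 2 of experiment 1 or either control of experiment 2, HLA-DPA1 without control replicate 1 of experiment 1 or either control of experiment 2, and HLA-DOB without that replicate 1, either MYC-labelled library or either control of experiment 2. Of 11 loading genes the chaperones PDIA3 and CALR fell, PDIA3 by 1.04 (adjusted p = 0.0028) in all 10 such fits and CALR by 0.99 (adjusted p = 0.0184) in 7 of 10. EZH2 was among 4 of 17 regulators that rose, by 0.52 (SE 0.137, adjusted p = 0.0325), a call that was lost in 6 of 10 fits with 1 library left out. Immune markers summed to 12.8 to 14.1 CPM in the controls of experiment 1 and 7.08 to 7.54 CPM in those of experiment 2, most of it LYZ, while ITGAM stood at 0.23 and 0.086 CPM against 0.97 and 0.50 CPM. Summed endothelial markers went the opposite way, from 8.21 to 9.10 CPM up to 15.9 to 17.0 CPM, as did summed epithelial markers, from 6.41 to 7.82 CPM up to 13.2 to 13.5 CPM. Each sum follows a few genes, since only 2 of the 4 tested genes in each list had a positive log2 fold change. Of the epithelial markers KRT5 was at 3.56 (edgeR adjusted p = 0.00928) and KRT14 at 0.98 (adjusted p = 0.0436), while EPCAM was at −4.14 (adjusted p = 0.0132). With 1 library left out these calls were lost in 1, 6 and 2 of 10 fits, in that order. The endothelial markers TIE1, at 3.26 (adjusted p = 0.0187), and PECAM1, at 2.91 (adjusted p = 0.0311), were called too. Those calls were lost in 4 and 6 of 10 such fits. Of 8 tested melanoma markers S100B fell by 2.04 (edgeR adjusted p = 0.000671) and S100A1 by 1.52 (adjusted p = 0.00104). NGFR rose by 2.26 (adjusted p = 0.00189). The part of these markers in the values was not tested.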

How the data were processed

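Poly(A) RNA of 10 A375 libraries was sequenced as single reads with a directional kit, per the labels' protocols. The submitters' processing notes name cutadapt for trimming, STAR for alignment and counting, and the build GRCh38.p13 (hg38). Versions, and the annotation behind the counts, were not given in the sources used here. Each deposited file holds raw counts for 60623 genes, and the column for the opposite strand was used. Reads outside genes (8.99% to 13.8%), at several places (4.98% to 6.36%) or in overlapping genes (2.98% to 3.48%) are in no gene's count. Symbols came from a table of gene names, and coordinates and transcripts from GENCODE release 29.

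The test was edgeR's quasi-likelihood test (edgeR 4.0.16, R 4.3.3) on 4 group means with TMM factors and filterByExpr. It had 6 residual degrees of freedom, and p-values were adjusted by Benjamini-Hochberg over all 18450 genes with a threshold of 0.05. SE is the log2 fold change over the square root of F. The code was tested on simulated data. Alternatives were DESeq2 1.42.0, limma-voom (limma 3.58.1), RLE and upper-quartile factors, no filter, 1 CPM in 4 libraries, unstranded counts, each experiment alone, a replicate block, the interferon split as a term and each library left out. The fits within parts of the split were added after seeing the data. The genes and lists were chosen with earlier results of these data known. Named genes were the 9, PHF10 and MYC, of each list up to 4 past the threshold per comparison and up to 3 with the widest range in experiment 1, and the genes of most similar profile; list genes that did not overlap between the parts, and further ones for contrast (HLA-DRA, CIITA, IFNB1, IFNL1, CXCL10, GBP1), were named after their values were seen.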

Additional observations from a re-analysis of the deposited data

How the results depend on the processing

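The PHF10 values of the 9 genes depended on which control was kept. With 1 library left out they ran from −1.30 to 0.71 for HLA-B, −0.997 to 0.68 for HLA-C, −0.66 to 0.71 for HLA-E, −1.22 to 2.01 for HLA-F, −1.07 to 0.90 for B2M, −1.07 to 1.19 for TAP1, −0.85 to 0.24 for TAP2, −1.12 to 1.25 for NLRC5 and −0.96 to 0.86 for PSMB9. The positive ends all came without control replicate 1 of experiment 1; HLA-E and HLA-F were also positive without PHF10 knockdown replicate 3. Within the interferon-low libraries HLA-E was 0.21, HLA-F 0.15, TAP1 0.030 and NLRC5 0.15. For the labelled MYC comparison PSMB9 ran from −0.28 to 0.029. For the difference of responses the ranges were −1.82 to 0.20 (HLA-B), −1.37 to 0.31 (HLA-C), −0.61 to 0.76 (HLA-E), −1.47 to 1.77 (HLA-F), −1.16 to 0.80 (B2M), −1.44 to 0.82 (TAP1), −0.25 to 0.85 (TAP2), −1.19 to 1.18 (NLRC5) and −0.85 to 0.98 (PSMB9), and HLA-E was 0.0074 with the split as a term. Between controls HLA-F ran from −3.19 to 0.022 and PSMB9 from −1.77 to 0.057.

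Replicate numbers did not pair the samples (r of same-numbered deviations 0.48, −0.30 and −0.03), and nothing in the labels says that they do. With the number as a replicate block the PHF10 values were 0.14 (HLA-B), 0.33 (HLA-C), 0.32 (HLA-E), 1.05 (HLA-F), 0.46 (B2M), 0.66 (TAP1), 0.62 (NLRC5) and 0.52 (PSMB9), and the differences of responses 0.37 (HLA-E), 0.81 (HLA-F), 0.36 (B2M), 0.28 (TAP1), 0.54 (NLRC5) and 0.64 (PSMB9). In that block the PHF10 knockdown libraries with no same-numbered control, both interferon-low, carry no weight. The PHF10 response there sets only interferon-high knockdown libraries against an interferon-high and an interferon-low control. Its signs are therefore not those of the whole group. The block called 0 genes for the labelled MYC comparison, 1 for the difference, and 1424 between controls. The last held 4 of the 9 (HLA-B, HLA-C, HLA-E and TAP1, lower). There the comparison is set at replicate 1, where the control of experiment 1 was interferon-high. The block called none of the 9 in the other comparisons.

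Among the 9, no filter gave 1 lower call for PHF10 (HLA-B, adjusted p = 0.00557), 1 for the difference and 9 between controls, where DESeq2, upper-quartile factors, the filter of 1 CPM in 4 libraries and the split term each gave 1 and leaving out 1 library 0 to 2 (1 without PHF10 knockdown replicate 1 or 3, 2 without control replicate 2 of experiment 1). Experiment 2 alone gave 5 higher and 1 lower. Over all genes, PHF10 calls numbered 1169, against 2180 by DESeq2, 2372 with no filter, 50 in experiment 1 alone, 2467 with the split term, 477 and 150 within the high and low parts, and 214 to 1387 with 1 library left out (214 and 219 without control replicate 1 or 2 of experiment 1). Labelled MYC calls numbered 91, against 722 by DESeq2, 211 by limma-voom, 911 with no filter, 7781 alone, 558 with the split term and 0 to 231 with 1 library left out. Calls of the difference numbered 71, against 633 by DESeq2, 918 with no filter, 489 with the split term and 1 to 140. Those between controls numbered 2702, with 554 to 3428 when 1 library was left out. Upper-quartile factors moved the median of all genes between controls to −0.13. The split term and the parts are read from the expression of the same libraries, so their calls support nothing. The causes were not tested. Groups of 2 limit every comparison.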
